A study of Mus musculus with 8 samples.

Results

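The GDNF family of growth factors and its receptors were examined in embryonic mouse dorsal root ganglia and spinal cord with and without Prdm12. The 8 genes are the receptor kinase gene Ret, the co-receptor genes Gfra1, Gfra2, Gfra3 and Gfra4, and the ligand genes Gdnf, Nrtn and Artn, taken by symbol from 38355 genes in the count files. All 8 had a row and all 8 passed the filter on low counts. RNA was sequenced from 4 Prdm12-/- (KO) and 4 wild-type (WT) libraries, all of the C57Bl6 strain at E11.5 and all from thoracic ganglia dissected with the adjoining spinal cord. Prdm12 encodes a PRDM zinc-finger factor of developing sensory neurons, and the comparison asks which genes depend on it. The submitters' design text describes the experiment as done in triplicate, but the sample list gives 4 libraries for each genotype, and none was left out of the comparison. The labels do not give the deleted part of the gene, nor whether a library came from 1 embryo or several, so p-values weigh the group difference only against the spread between these libraries. Both groups are whole dissected tissue, in which fewer cells of a type and less RNA per cell cannot be told apart.

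GDNF, neurturin and artemin are secreted factors that support neurons and guide their axons. Each binds by preference to its own membrane-anchored co-receptor, GDNF to GFRα1, neurturin to GFRα2 and artemin to GFRα3, and the pair then engages the RET tyrosine kinase. GFRα4 is the co-receptor of a further ligand, persephin. In the peripheral nervous system RET marks early mechanoreceptors, later the non-peptidergic nociceptors, and autonomic neurons. Spinal motor neurons also use RET and GFRα1, so the dissected tissue holds several possible sources of these transcripts.

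The libraries held between 23088908 and 28500792 counts, apart from WT replicate 1 with 67782435. Prdm12 stood between 0.962 and 1.55 CPM (reads of a gene relative to library size) in KO libraries, against 22.2 to 39.6 CPM in WT libraries, which fits the labels. WT replicate 1 also stood apart in marker levels. The summed level of 11 sensory neuron markers was 477 CPM there, within the KO range of 441 to 502 CPM and below the 604 to 638 CPM of the other WT libraries. The sum of 7 mesenchyme markers was 1815 CPM there, the lowest of the 8 libraries, while WT replicates 2 to 4 held 2225 to 2467 CPM. Markers of the labelled tissue were present in every library, and 4 of the 11 sensory markers fell in KO, among them Pou4f1, Tlx2 and Eya2. Pou4f1, the Brn3a factor of sensory neurons, averaged 65.3 ± 4.69 CPM in KO and 93.9 ± 9.37 CPM in WT (SD, n = 4 each; log2 fold change −0.52, SE 0.08, edgeR adjusted p = 0.0188). The members' log2 fold changes are therefore given with and without it.

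No GDNF family gene passed the test for a change in KO. Of the 8 members, 0 rose, 0 fell and 8 did not pass the test (edgeR quasi-likelihood, adjusted over 16068 genes), with adjusted p between 0.855 and 0.997. Of all tested genes 0.299% passed (0.243% lower and 0.056% higher in KO), so a count of 0 among 8 is also what that background gives and is read here only with the intervals below. At an unadjusted p under 0.05, 0 of the 8 were found with edgeR and 0 with DESeq2, while limma-voom gave 1 (Gdnf). Of all tested genes 6.35% had an unadjusted p under 0.05 with edgeR. The KO and WT ranges overlapped for all 8 members, whereas 4.14% of tested genes had groups that did not overlap. The members' median log2 fold change was 0.01, against −0.003 over all tested genes, with 4 members above 0 and 4 below.

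**Figure D1:**
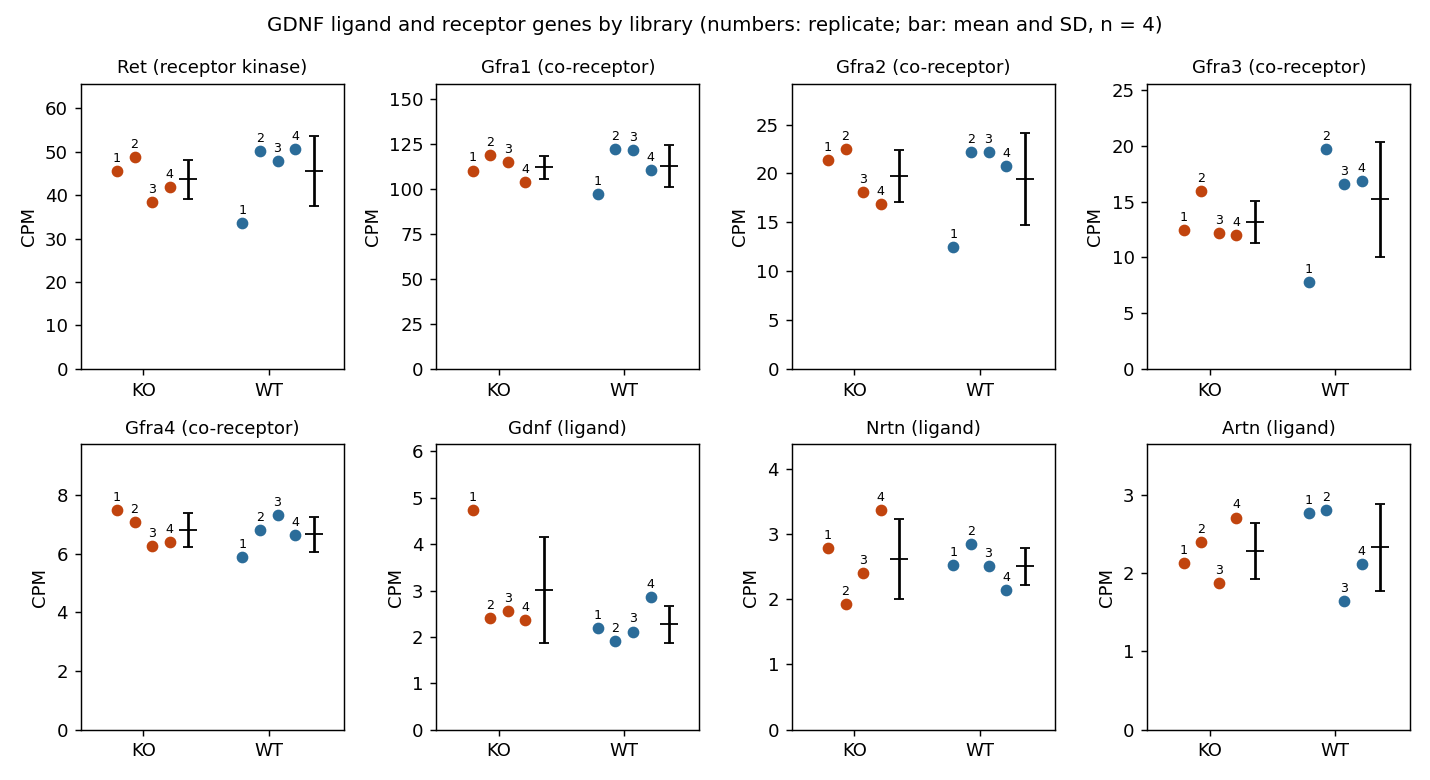
Expression of the 8 genes in each library, in CPM on linear axes that start at 0, with KO left and WT right in each panel. Points are libraries with their replicate number, and the black mark is the mean with SD (n = 4). WT replicate 1 is the lowest of all 8 libraries for Ret, Gfra1, Gfra2, Gfra3 and Gfra4, and KO replicate 1 is the highest for Gdnf.

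Ret (ENSMUSG00000030110, mm10 chromosome 6, 118151745 to 118197718, minus strand) encodes the kinase through which all these ligands signal. It stood at 45.6, 48.8, 38.4 and 41.9 CPM in KO replicates 1 to 4, against 33.5, 50.2, 47.9 and 50.5 CPM in WT replicates 1 to 4. The lowest and the highest of the 8 values were both WT libraries. The means were 43.7 ± 4.55 CPM in KO and 45.5 ± 8.10 CPM in WT (SD, n = 4 each), and the log2 fold change of −0.05 had a 95% interval from −0.35 to 0.24. In linear terms the interval runs from 0.784 to 1.18 times the WT level. Without WT replicate 1 the log2 fold change was −0.18 (95% interval −0.33 to −0.02; unadjusted p = 0.0342, edgeR adjusted p = 0.602), and the groups still overlapped.

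Gfra1 (ENSMUSG00000025089, chromosome 19, 58235604 to 58455909, minus strand), the co-receptor gene for GDNF, was the most abundant member. It had 110.1, 119, 115 and 104 CPM in KO replicates 1 to 4, against 96.9, 122, 122 and 110.5 CPM in WT replicates 1 to 4. Its log2 fold change of −0.01 had the narrowest interval of the 8, from −0.17 to 0.15, or 0.889 to 1.11 times the WT level. Its sign turned with library totals or upper-quartile scaling, each still within 0.01 of 0, so no direction is given. An annotated antisense gene, Gm16277, overlaps an exon of Gfra1 and had 0 counts in all libraries.

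Gfra2 (ENSMUSG00000022103, chromosome 14, 70890120 to 70979838, plus strand) encodes the co-receptor that prefers neurturin. Its levels were 21.4, 22.5, 18.1 and 16.9 CPM in KO replicates 1 to 4, against 12.5, 22.2, 22.2 and 20.8 CPM in WT replicates 1 to 4. WT replicate 1 was far below the other 3 WT libraries, which sat at the upper end of the KO values. The log2 fold change was 0.03 (95% interval −0.38 to 0.45), and −0.13 without WT replicate 1 (95% interval −0.34 to 0.07; edgeR adjusted p = 0.897).

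Gfra3 (ENSMUSG00000024366, chromosome 18, 34689898 to 34720387, minus strand), the artemin co-receptor gene, is known for its expression in young sensory and sympathetic neurons. It stood at 12.5, 16.0, 12.1 and 11.98 CPM in KO replicates 1 to 4, against 7.77, 19.7, 16.6 and 16.8 CPM in WT replicates 1 to 4. WT replicate 1 was below every KO library and the other 3 WT libraries were above every KO library. The log2 fold change was −0.19 (95% interval −0.80 to 0.42; adjusted p = 0.959), the widest interval among the members. Without WT replicate 1 it was −0.42 (95% interval −0.65 to −0.19; unadjusted p = 0.00199, edgeR adjusted p = 0.151), still short of the threshold. In that fit 0 of 8 members and 0.82% of all tested genes passed, and 7.23% had an unadjusted p under 0.05. Gfra3 was then the 1 member whose groups did not overlap, as held for 8.17% of tested genes. Sensory markers moved in the same libraries, and their part in these values was not tested.

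**Figure D2:**
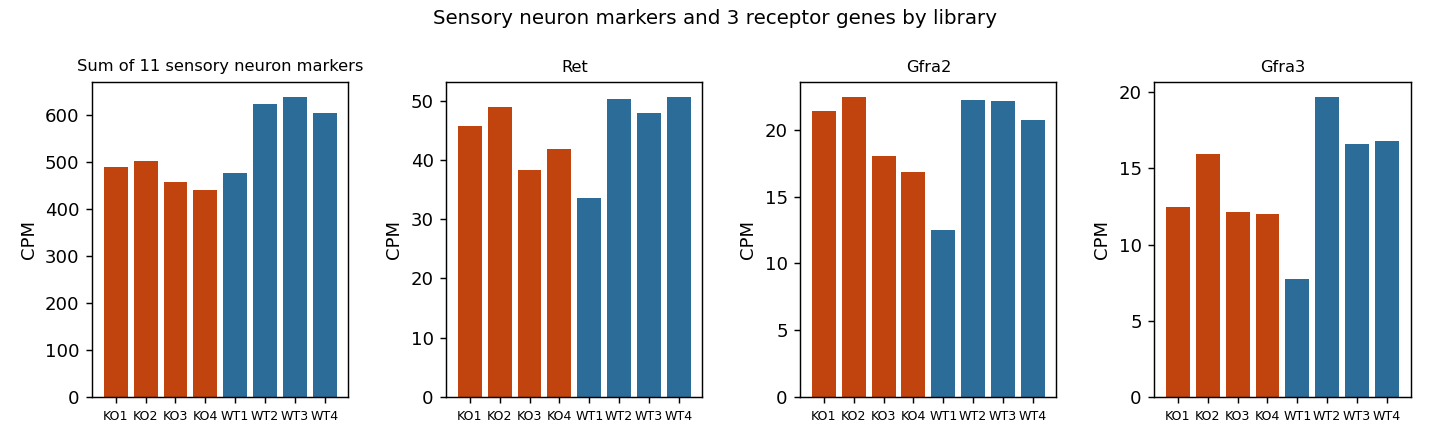
Summed CPM of 11 sensory neuron markers (left) and CPM of Ret, Gfra2 and Gfra3 in each library, on linear axes from 0, with KO1 to KO4 left of WT1 to WT4. WT replicate 1 has a marker sum of 477 CPM beside 604 to 638 CPM in the other WT libraries, and is the lowest of the 8 libraries for each of the 3 receptor genes.

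Gfra4 (ENSMUSG00000027316, chromosome 2, 131039632 to 131043088, minus strand), the persephin co-receptor gene, was even across libraries. Its values were 7.48, 7.09, 6.26 and 6.38 CPM in KO replicates 1 to 4, against 5.88, 6.79, 7.33 and 6.62 CPM in WT replicates 1 to 4. The log2 fold change was 0.04 (95% interval −0.18 to 0.26), or 0.880 to 1.20 times the WT level. A microRNA gene, Mir6973b, overlaps an exon of Gfra4 on the same strand. Mir6973b had no row of its own in the counts, so reads of the pair cannot be told apart.

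Among the ligands, Gdnf (ENSMUSG00000022144, chromosome 15, 7810846 to 7837575, plus strand) had the log2 fold change farthest from 0 among the members in the fit to all 8 libraries. It stood at 4.73, 2.40, 2.55 and 2.36 CPM in KO replicates 1 to 4, against 2.20, 1.92, 2.12 and 2.85 CPM in WT replicates 1 to 4. KO replicate 1 was alone at the top, and the other 3 KO libraries lay within the WT range. The log2 fold change was 0.41 (95% interval −0.10 to 0.93; adjusted p = 0.855) and 0.10 without KO replicate 1. Without WT replicate 1 it was 0.40, no farther from 0 than the −0.42 of Gfra3. Gdnf is made by muscle and mesenchyme around growing nerves, and the 6 skeletal muscle markers had a median log2 fold change of 0.28 with 0 of 6 passing. With a covariate for the mean level of muscle and mesenchyme markers the Gdnf value was 1.03 (95% interval 0.45 to 1.61; unadjusted p = 0.00257, edgeR adjusted p = 0.751). That covariate, a mean log2 CPM, stood between 6.60 and 6.86 in KO libraries, against 6.45 to 6.61 in WT libraries, so the groups barely overlapped in it and the adjusted value is largely an extrapolation. In KO replicate 1 the muscle marker sum was 495 CPM, the lowest of the KO libraries (495 to 716 CPM) and inside the WT range of 440 to 534 CPM. The sum of 8 nephric duct and kidney markers, another embryonic source of Gdnf, was 160 CPM there, against 140 to 161 CPM in WT.

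Nrtn (ENSMUSG00000039481, chromosome 17, 56751325 to 56757530, minus strand), the neurturin gene, had 2.78, 1.92, 2.40 and 3.37 CPM in KO replicates 1 to 4, against 2.53, 2.84, 2.51 and 2.15 CPM in WT replicates 1 to 4. The 4 WT values lay between the lowest and the highest KO values. Its log2 fold change was 0.06 (95% interval −0.32 to 0.44). Artn (ENSMUSG00000028539, chromosome 4, 117926162 to 117929763, minus strand), the artemin gene, had 2.13, 2.40, 1.87 and 2.71 CPM in KO replicates 1 to 4, against 2.76, 2.80, 1.65 and 2.11 CPM in WT replicates 1 to 4. All 4 KO values of Artn lay within the WT range. Its log2 fold change was −0.05 (95% interval −0.47 to 0.36). The 3 ligand genes rested on few reads, down to 42 counts for Artn in WT replicate 3, which corresponds to 1.65 CPM with an exact Poisson 95% interval of 1.19 to 2.23 CPM for counting error only.

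**Figure D3:**
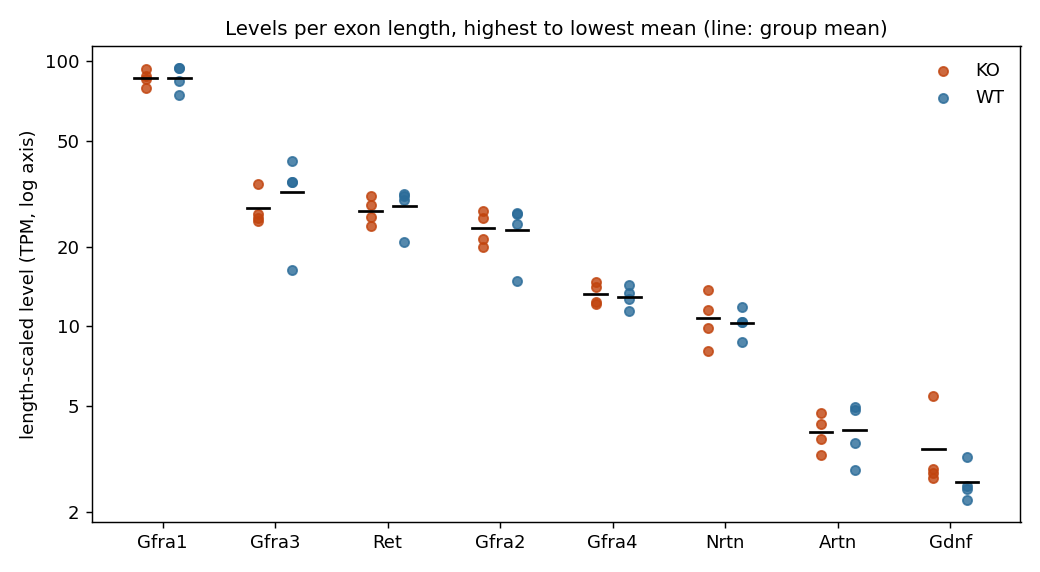
Length-scaled levels of the 8 genes (TPM from the union of annotated exons, log axis), ordered by the mean over 8 libraries, with KO left of WT for each gene. Points are libraries and lines are group means. Gfra1 lies above every other member in every library.

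Levels of different genes were compared as TPM values, which scale counts to exon length and library size. Gfra1 averaged 86.4 ± 5.85 TPM in KO and 86.6 ± 9.47 TPM in WT (SD, n = 4 each), and its lowest library, at 74.4 TPM, was above the highest library of any other member, at 41.8 TPM. Gfra3 followed at 27.9 ± 4.41 TPM in KO and 32.1 ± 10.9 TPM in WT, Ret at 27.3 ± 3.18 TPM in KO and 28.3 ± 5.04 TPM in WT, and Gfra2 at 23.6 ± 3.48 TPM in KO and 23.1 ± 5.61 TPM in WT. The library ranges of Gfra3, Ret and Gfra2 overlapped, so their order is not resolved. Gfra4 averaged 13.3 ± 1.26 TPM in KO and 12.9 ± 1.20 TPM in WT, and overlapped with Nrtn at 10.8 ± 2.41 TPM in KO and 10.3 ± 1.25 TPM in WT. Artn, at 4.01 ± 0.626 TPM in KO and 4.08 ± 0.988 TPM in WT, overlapped with Gdnf, at 3.47 ± 1.33 TPM in KO and 2.60 ± 0.438 TPM in WT. Of the 3 ligand genes Nrtn had the highest level per length, whose lowest library held 8.08 TPM against at most 5.46 TPM for Gdnf or Artn in any library. With the longest transcript in place of all exons, Ret (26.1 TPM) stood above Gfra3 (22.7 TPM).

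The make-up of the co-receptor pool was compared next, as shares given only with WT replicate 1 included. Gfra1 supplied 57.3 ± 2.07% of the summed GFRα TPM in KO and 56.6 ± 4.75% in WT (SD, n = 4 each). Gfra3 supplied 18.4 ± 1.40% in KO and 20.2 ± 4.33% in WT, Gfra2 15.6 ± 1.15% in KO and 14.8 ± 1.42% in WT, and Gfra4 8.81 ± 0.648% in KO and 8.47 ± 0.933% in WT. Whether a co-receptor moved by another amount than Ret was tested as the log2 ratio of their CPM within each library, for 3 ratios, with two-sided exact permutation tests whose smallest possible p is 0.0286. Gfra1 over Ret differed by 0.04 between KO and WT (exact permutation p = 0.743, adjusted p = 0.743), Gfra2 over Ret by 0.10 (exact permutation p = 0.314, adjusted p = 0.743) and Gfra3 over Ret by −0.09 (exact permutation p = 0.571, adjusted p = 0.743). The Gfra3 ratio stood between −1.87 and −1.61 in KO libraries, against −2.10 in WT replicate 1 and −1.59 to −1.35 in the other WT libraries, and its difference was −0.25 without WT replicate 1.

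The members differed in how much they varied between libraries of the same group. The within-group SD of log2 CPM was 0.12 for Gfra1 and 0.13 for Gfra4, close to the median of 0.11 over all tested genes. It was 0.23 for Ret, 0.32 for Gfra2 and 0.45 for Gfra3, the last above that of 94.9% of tested genes. Without WT replicate 1, a setting chosen after seeing the data, it was 0.12 for Ret, 0.16 for Gfra2 and 0.17 for Gfra3, the last above that of 72.7% of tested genes, so the spread of these 3 receptor genes rested on that library. It was then 0.08 for Gfra1. Among the lower-count ligands the SD with all libraries was 0.37 for Gdnf, 0.30 for Artn and 0.26 for Nrtn, and that of Gdnf was 0.19 without KO replicate 1. The genes whose profile over the 8 libraries came closest were sought among 11563 other protein-coding genes, by the root mean square difference of log2 CPM centred on each gene's mean. For Ret these were Nrxn2, Mast1 and Apba1, with differences of 0.03, 0.03 and 0.05 against a median of 0.22. For Gfra1 they were Plcb4, Tcta and Retreg1, each at 0.03 against a median of 0.14, and for Gfra2 Lxn, Spock1 and Thbs2, at 0.05 to 0.07 against 0.29. Gfra3 was nearest to Gabbr2, Adgrg2 and Pappa2, at 0.11 to 0.13 against 0.40, and Gfra4 to Tcerg1l, Cmpk2 and Ptprs, each at 0.05 against 0.14. The log2 fold changes of these 15 genes did not pass the test, and all the comparisons share the same 8 libraries. Without WT replicate 1, 2 of these 15 were still among the 3 nearest genes of their member, and without KO replicate 1, 9 of 15 were, so the nearest genes depend on single libraries.

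Genes that act with the family were examined as lists. Of 5 other ligands, receptors and partners, Gfral and Gdf15 were below the filter and 0 of the other 3 passed. Pspn, the persephin gene, averaged 0.574 ± 0.0534 CPM in KO and 0.508 ± 0.0554 CPM in WT (SD, n = 4 each), with a log2 fold change of 0.17. Ncam1, an adhesion molecule that can bind GDNF with GFRα1, had a log2 fold change of −0.01, and the heparan sulfate proteoglycan gene Sdc3 one of 0.05. Of 20 adaptors and signalling genes used by RET, 0 rose, 0 fell and 20 did not pass, with a median log2 fold change of −0.01 against −0.003 over all tested genes. The smallest p in that list was for Sos1, an exchange factor for RAS, at 93.6 ± 3.20 CPM in KO and 99.8 ± 3.07 CPM in WT (SD, n = 4 each; edgeR adjusted p = 0.775). The adaptor genes Gab2 and Shc1 followed with log2 fold changes of −0.09 and 0.07.

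Genes known to respond to RET and other receptors through ERK signalling gave the same count. Of 10 such transcription factor and feedback genes, 0 passed in either direction, and the median log2 fold change was 0.06. The Sprouty inhibitor genes had the smallest p in this list. Spry4 averaged 20.6 ± 1.73 CPM in KO and 18.3 ± 1.24 CPM in WT, and Spry1 24.6 ± 2.34 CPM in KO and 21.7 ± 2.08 CPM in WT (SD, n = 4 each). Their log2 fold changes were 0.16 and 0.18 (edgeR adjusted p = 0.804 and 0.811), and that of Spry2 was 0.11. With DESeq2 and limma-voom, too, 0 members of these 3 lists passed. At an unadjusted p under 0.05 with edgeR they held 0, 1 (Sos1) and 0 genes.

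**Figure D4:**
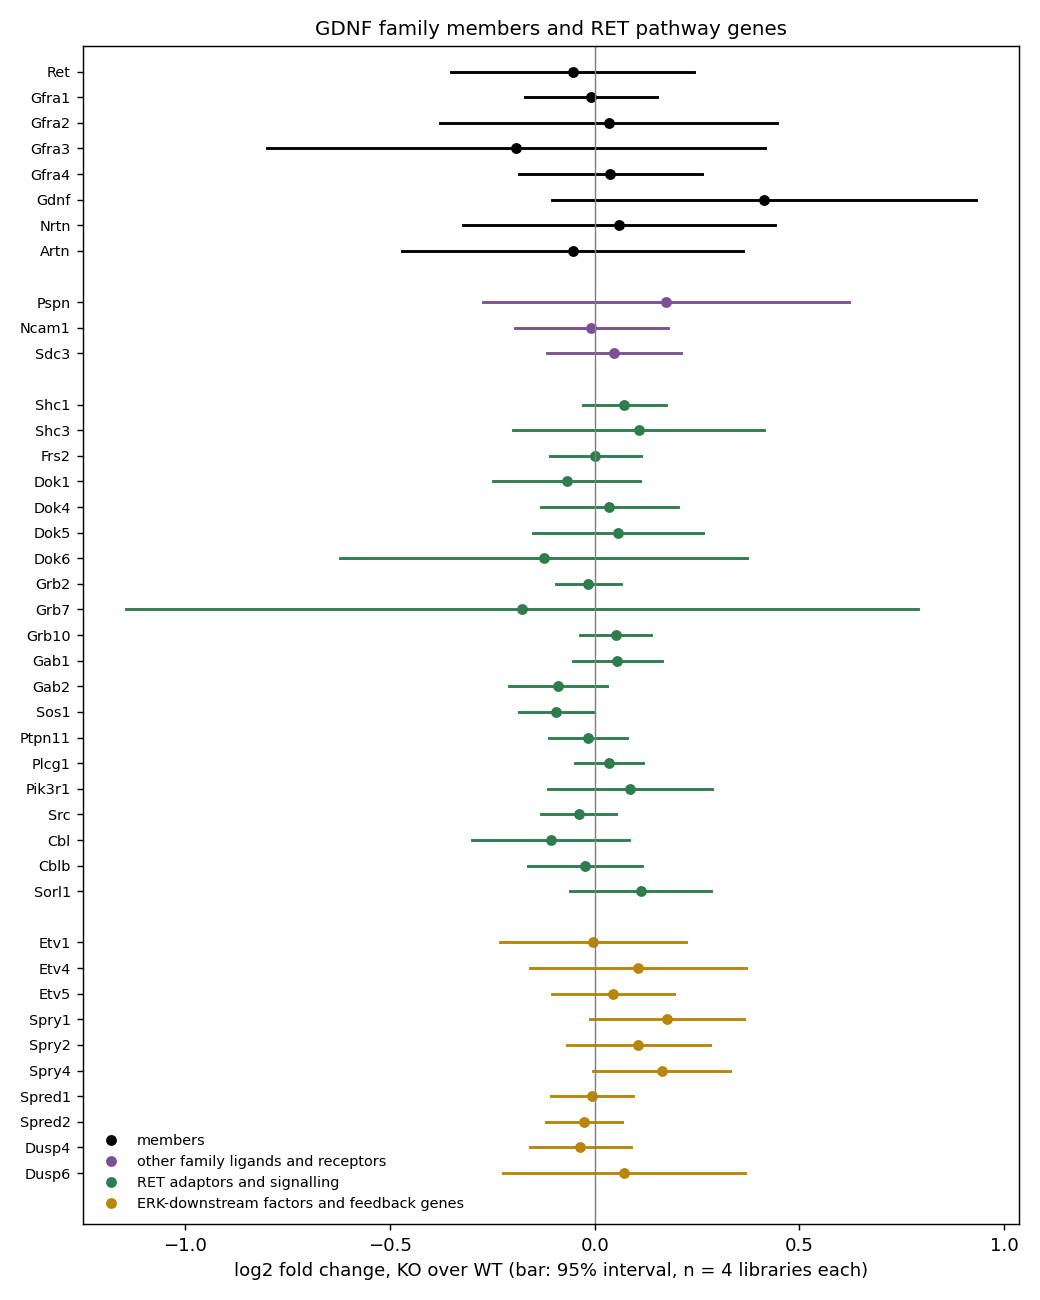
Log2 fold change, KO over WT, with 95% intervals from the edgeR fit (n = 4 libraries each) for the 8 members and the tested genes of 3 pathway lists. A value of 0 lies inside the interval of every gene shown except Sos1, and none passed the test after adjustment. The interval is narrow for Gfra1, from −0.17 to 0.15, and wide for Gfra3, from −0.80 to 0.42.

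Transcription factors and partners known for Ret expression in sensory, motor or autonomic neurons were the list with lower values. Of 11 tested genes 1 fell, 0 rose and 10 did not pass, and the median log2 fold change was −0.17. Isl2, a LIM homeobox factor of motor and sensory neurons, averaged 24.1 ± 1.10 CPM in KO and 32.4 ± 3.82 CPM in WT (SD, n = 4 each; log2 fold change −0.42, edgeR adjusted p = 0.0916). Tlx3 and Isl1, homeobox factors of sensory neurons, had log2 fold changes of −0.52 and −0.34 (edgeR adjusted p = 0.337 and 0.751). Runx1, which in mouse nociceptors is required for later Ret expression, had a log2 fold change of −0.05. Without WT replicate 1, 3 genes of the list fell, among them Isl2 and Tlx3, and 1 rose, while 0 of the 8 family members passed.

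Markers of other tissue in the dissections are given beside these values. Of 7 tested motor neuron markers 1 rose, the LIM homeobox gene Lhx3, and their summed level was 247 to 259 CPM in KO, against 236 to 251 CPM in WT. Of 6 autonomic neuron markers 0 passed, with sums of 55.4 to 64.9 CPM in KO, against 43.1 to 58.8 CPM in WT, and 2 had an unadjusted edgeR p under 0.05. Of 7 markers of crest-derived glia 1 fell, Foxd3, with sums of 590 to 739 CPM in KO, against 647 to 762 CPM in WT. The sums of 6 muscle markers (495 to 716 CPM in KO, against 440 to 534 CPM in WT) and of 7 mesenchyme markers (2349 to 2649 CPM in KO, against 1815 to 2467 CPM in WT) overlapped between groups, and 0 members of either list passed, while 4 muscle and 0 mesenchyme markers had an unadjusted edgeR p under 0.05. No listed marker was at 0 in all libraries, and the part of these tissues in the family's values was not tested.

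**Figure D5:**
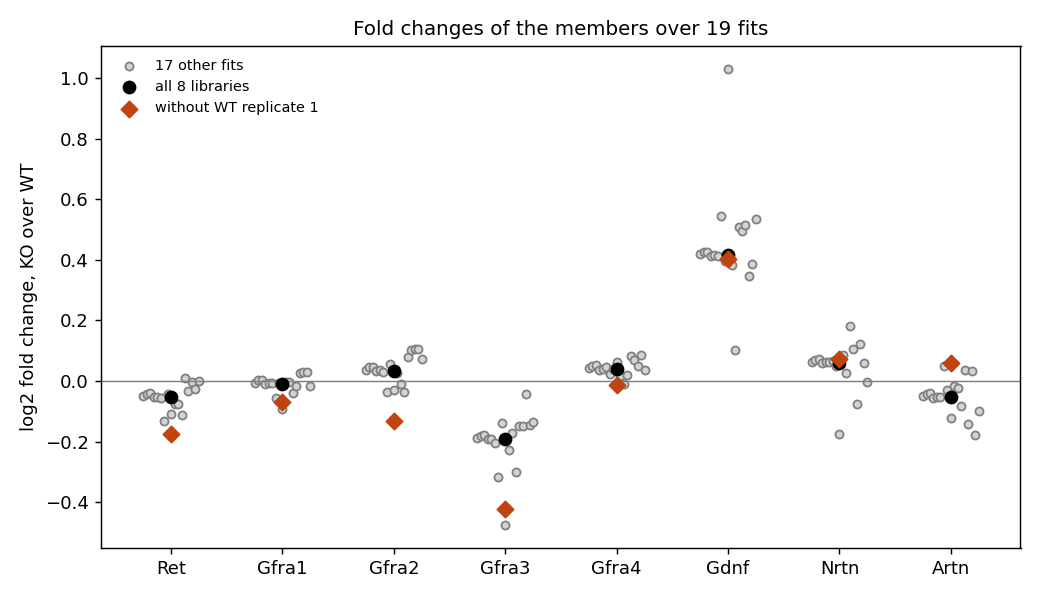
Log2 fold change, KO over WT, of the 8 members in 19 fits: the edgeR fit to all 8 libraries (black), the fit without WT replicate 1 (diamonds) and 17 others (grey). No member passed the test in any of the 19. The diamond for Gfra3 is at −0.42 and that for Ret at −0.18, and the highest grey point, at 1.03, is Gdnf with the muscle and mesenchyme covariate.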

How the data were processed

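The deposited files hold raw counts, whole reads per Ensembl gene. Per the submitters' processing notes, the build was mm10 and the tools included STAR 2.3.0e and featureCounts 1.4.6-p1, with no roles or settings stated. The annotation release, and whether reads were assigned by strand, is not given in the sources used here. Of 38355 identifiers, 36602 matched GENCODE M21 (GRCm38, the assembly of mm10), which gave symbols, coordinates and lengths. The 5 summary rows held 0 counts. Groups and replicate numbers came from sample titles. KO and WT were compared in edgeR 4.0.16 (R 4.3.3) with filterByExpr, TMM factors and a robust quasi-likelihood fit with group as its only term, with Benjamini-Hochberg adjusted p under 0.05 among 16068 genes as the threshold. CPM use TMM-adjusted library sizes, and log2 CPM use a prior count of 2. SE values and intervals were derived from each gene's F statistic. The alternatives comprised 3 scalings, 2 filters, DESeq2 1.42.0, limma-voom 3.58.1 with quality weights, a replicate block, a muscle and mesenchyme covariate, a thinned WT replicate 1 and fits without each library. The fit was tested on simulated counts. Permutation tests used 70 assignments. Within each group the libraries differed by more than counting noise, which separate preparations of 1 RNA sample would also do, and all 8 counted as replicates as labelled.

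All 8 members are named. From each pathway list the called genes and up to 3 genes of smallest p are named, and for members above 5 CPM the 3 genes of most similar profile. Runx1, Gfral, Gdf15, Gm16277 and Mir6973b, and the markers Pou4f1, Tlx2, Eya2, Lhx3 and Foxd3, were named after their values were seen. The members and lists were chosen with earlier results of these data known. Some genes of these lists, 1 of which the rule names, are not reported here by name, and 2 listed markers were not analysed here.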

Additional observations from a re-analysis of the deposited data

Results flagged for a closer look

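A library standing far from the other 3 of its group was looked for in 22 combinations of group and quantity, and 6 were found. Chance alone flags about 5% of such groups. WT replicate 1 was far below the other WT libraries for Ret (33.5 CPM) and Gfra2 (12.5 CPM). KO replicate 2 was far above the other KO libraries for Gfra3 (16.0 CPM). KO replicate 1 was far above the other KO libraries for Gdnf (4.73 CPM). In the log2 ratios to Ret, KO replicate 3 was high for Gfra1 over Ret (1.58) and KO replicate 4 low for Gfra2 over Ret (−1.31).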

How the results depend on the processing

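No member passed in any of the 19 fits (lowest adjusted p 0.151). The signs of small log2 fold changes were not stable. Gfra1 was 0.002 with library totals and 0.0047 with upper-quartile scaling. Gfra2 was −0.038 with limma-voom and −0.0285 with the muscle and mesenchyme covariate, Nrtn was −0.18 with that covariate, and Artn was 0.0506 with limma-voom. Gdnf was above 0 and Gfra3 below 0 in all 19 fits. Without WT replicate 1, Gfra1 was −0.0699, Gfra2 −0.133, Gfra4 −0.0145, Nrtn 0.0713 and Artn 0.0582. The signs of Gfra2, Gfra4 and Artn turned in that fit. Leaving out single libraries gave ranges of −0.175 to 0.0093 for Ret, −0.0699 to 0.0302 for Gfra1, −0.133 to 0.107 for Gfra2, −0.421 to −0.0421 for Gfra3, −0.0145 to 0.0866 for Gfra4, 0.103 to 0.534 for Gdnf, −0.077 to 0.181 for Nrtn and −0.178 to 0.0582 for Artn.

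Over all genes, 9 rose and 39 fell, against 19 and 82 with DESeq2, 20 and 95 with limma-voom, and 0 and 1 with the muscle and mesenchyme covariate. Without single libraries 3 to 21 rose and 12 to 112 fell, the highest counts without WT replicate 1. Of the Ret factor list, 1 gene fell, against 2 without a filter, 3 with DESeq2, 2 with limma-voom, and 0 with the covariate, and without single libraries 1 to 3 fell and 0 to 1 rose. With the longest transcript as length, Gfra1, Gfra2 and Nrtn stood at 77.3, 18.0 and 7.99 TPM. The causes were not tested.

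With a replicate block, 2 genes rose and 14 fell, and 0 of the Ret factor list fell. Same-numbered libraries correlated between −0.19 and 0.28 in their deviations from group means, and 1 of 8 correlated best with its own number. The labels do not say that the numbers pair libraries, and with so few libraries these correlations cannot decide it. The block changed no member's sign or call. The ligand genes rested on 42 to 186 counts a library, and the smallest difference detectable at that depth was not computed.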

Other observations

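In KO replicate 4 the nephric duct gene Cdh16 stood at 3.15 CPM and the kidney and mesothelium gene Wt1 at 24.5 CPM, against at most 0.253 and 9.43 CPM in the other KO libraries and at most 0.176 and 9.76 CPM in WT libraries. Ret, which is also active in the nephric duct, was at 41.9 CPM in that library, against 38.4 to 48.8 CPM in the other KO libraries. The part of nephric tissue in that value was not tested.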
